A study of Mus musculus with 57 samples.

Results

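The genes described here are those whose promoters carried histone H3 lysine 27 trimethylation (H3K27me3) in the brain cortex and not in the gastrocnemius, a calf muscle, of PSAPP mice. They were chosen by the measured H3K27me3 peaks themselves: an autosomal RefSeq gene is a member if the 1 kb on either side of its most upstream transcription start site (TSS) was overlapped by an H3K27me3 peak in at least 8 of the 9 cortex libraries and in at most 1 of the 10 gastrocnemius libraries. Of 24963 autosomal genes, 429 (1.72%) met these counts. The other histone marks of the series, H3K4me3 and H3K27ac, were measured in libraries of their own and played no part in the choice. PSAPP is a transgenic mouse model of Alzheimer's disease, and all animals carried it, so no group without the transgenes was compared. The 10 mice were sacrificed at 13 months of age and had been singly housed on a modified AIN-93 diet from 6 months on. They gave 57 libraries, 19 for each of 3 marks, and 9 of the mice gave both tissues according to the deposited names. The study used animals of both sexes, and sex was not used as a group here.

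H3K27me3 is deposited by Polycomb repressive complex 2, whose catalytic subunit is Ezh2 or Ezh1, and is a mark of promoters that are kept silent. It is best known from the Hox clusters and other developmental regulators, and its usual landing sites are promoters rich in CpG dinucleotides. H3K4me3 is deposited around the start sites of genes that are transcribed or poised for transcription, and H3K27ac marks active promoters and enhancers. Acetyl and trimethyl groups cannot sit on the same lysine, although they can occur at the same promoter on different histone tails, alleles or cells. In a bulk tissue, fewer cells that carry a mark and less of the mark per cell cannot be told apart.

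The values by which the members were chosen were as follows, given as a description. Peaks in all 9 cortex libraries and in no gastrocnemius library were found at 209 members, in 8 and none at 90, in 9 and 1 at 90, and in 8 and 1 at 40. Just outside the rule lay 143 genes with 7 cortex libraries and at most 1 gastrocnemius library, and 102 genes with at least 8 cortex libraries and 2 gastrocnemius libraries. The median member carried 7.29 RPM of H3K27me3 in the cortex (interquartile range over members 6.35 to 8.31), where RPM is the number of peak reads falling in the promoter window, scaled to 1 M reads in the autosomal peaks of that library. At the 2637 genes with H3K27me3 in both tissues (at least 8 cortex and at least 9 gastrocnemius libraries) this level was 8.88 RPM in the cortex, and the median peak spanned 8.8 kb, against 6 kb at the members. The deepest of the gastrocnemius H3K27me3 libraries, replicate 5, held 18.2 M reads in peaks, while the median of the 10 was 5.73 M, and it stood apart at the members. It had a peak at 12.1% of them, against 1.17% to 3.96% in the other 9 libraries. Of the 130 members with a single gastrocnemius peak, replicate 5 held that peak at 52. With replicate 5 left out, 482 genes met the rule, and they included all 429 members.

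Reads in peaks ranged from 4.52 to 7.32 M for H3K27me3 in the cortex and from 2.99 to 18.2 M in the gastrocnemius, from 9.16 to 19 M for H3K4me3, and from 3.94 to 27.3 M for H3K27ac, with cortex replicate 9 the shallowest. A library without a peak may still hold reads at a promoter, so an absent peak means that no enrichment was called at this depth. The tissues carried the marks of their own cell types. H3K27ac peaks stood at 15 of 16 neuron marker promoters in every cortex library and at 2 of 16 in every gastrocnemius library, where 10 of them, among them Snap25, Rbfox3 and Gad1, had no peak in any library. Of 68 sarcomere and Z-disc genes, 57 had an H3K27ac peak in every gastrocnemius library and 23 in every cortex library. Markers of vessels were present in both tissues, with an H3K27ac signal summed over 27 promoters of 104 to 129 RPM in the cortex and 145 to 224 RPM in the gastrocnemius. The part of cell type composition in the results below was not tested.

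Promoter sequences are shown for 6 members that stand for the patterns described below, taken from RefSeq (build GRCm38.p6, the assembly of mm10). Each is the 200 bases before the most upstream TSS, written 5′ to 3′ on the strand of the gene, with CpG dinucleotides in capitals. Whether this start is the one used in either tissue was not tested. Des and Hoxa6 have start sites with many CpGs, and Smyd1 and Mb are muscle genes with few. Dio2 is a member whose active marks went the other way by reads of whole peaks, and Muc4 had neither active mark.
Des, chr1:75360092-75360291, plus strand: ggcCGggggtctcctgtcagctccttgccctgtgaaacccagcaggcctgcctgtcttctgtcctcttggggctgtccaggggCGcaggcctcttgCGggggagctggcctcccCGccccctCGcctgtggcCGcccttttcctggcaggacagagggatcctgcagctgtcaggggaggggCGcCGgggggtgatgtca
Hoxa6, chr6:52208673-52208872, minus strand: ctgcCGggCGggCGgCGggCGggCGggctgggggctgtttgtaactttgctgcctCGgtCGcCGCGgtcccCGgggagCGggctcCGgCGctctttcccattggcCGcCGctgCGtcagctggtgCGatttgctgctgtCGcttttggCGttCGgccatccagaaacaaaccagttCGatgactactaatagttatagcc
Smyd1, chr6:71262282-71262481, minus strand: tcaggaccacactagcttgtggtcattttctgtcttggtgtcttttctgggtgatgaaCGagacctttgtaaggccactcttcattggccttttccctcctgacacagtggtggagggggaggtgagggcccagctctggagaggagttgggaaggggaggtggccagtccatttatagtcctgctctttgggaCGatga
Mb, chr15:77050669-77050868, minus strand: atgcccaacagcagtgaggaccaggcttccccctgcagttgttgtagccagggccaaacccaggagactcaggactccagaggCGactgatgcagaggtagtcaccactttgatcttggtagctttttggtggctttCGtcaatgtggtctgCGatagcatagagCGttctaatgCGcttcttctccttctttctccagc
Dio2, chr12:90739039-90739238, minus strand: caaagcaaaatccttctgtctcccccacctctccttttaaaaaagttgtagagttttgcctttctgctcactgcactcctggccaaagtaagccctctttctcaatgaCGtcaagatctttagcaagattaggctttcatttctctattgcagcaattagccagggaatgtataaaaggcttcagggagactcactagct
Muc4, chr16:32735686-32735885, plus strand: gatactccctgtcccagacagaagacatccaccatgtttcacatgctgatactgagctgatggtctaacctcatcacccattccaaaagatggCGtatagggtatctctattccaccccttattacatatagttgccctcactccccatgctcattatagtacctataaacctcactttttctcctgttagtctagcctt
The 200 bases hold 22 CpGs at Hoxa6, 8 at Des, 5 at Mb, 2 at Smyd1, and 1 each at Dio2 and Muc4. The E-box CAGCTG, the letters bound by myogenic factors such as Myod1, starts 36 bases before the TSS of Des and 84 bases before that of Hoxa6. A TATAAA stands on the gene's strand 30 bases before the TSS of Dio2 and 36 bases before that of Muc4, and on the opposite strand 28 bases before that of Smyd1.

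The members as a set had few CpGs. Over the 500 bases on either side of the TSS, the median ratio of observed to expected CpG was 0.338 at members (interquartile range 0.195 to 0.614), 0.527 over all autosomal genes, 0.523 at the genes with H3K27me3 in both tissues, and 0.663 at the 658 genes with H3K27me3 in the gastrocnemius only (at most 1 cortex and at least 9 gastrocnemius libraries). A ratio over 0.6 was reached by 27.5% of members, 44.4% of all autosomal genes, 39.3% of the genes marked in both tissues and 60.9% of those marked in the gastrocnemius only. The promoter table, which covers 250 bases before to 50 after a TSS, matched 319 members and 18230 autosomal genes at the TSS used here. In these windows CAGCTG, read on both strands as were all motifs, was present at 22.3% of members and at 15.6% of all genes. The MEF2 letters CTAAAAATA stood at 1.57% of members and at 0.439% of all genes, CTATTTTTA at 0.627% and 0.433%, and the MCAT letters CATTCCT at 6.58% and 4.72%. GGGCGG, the GC box, stood at 40.8% and 45.5%, and TATAAA at 12.9% and 13.1%. A match describes letters in a window and not a bound site.

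H3K4me3 and H3K27ac stood at more members in the gastrocnemius than in the cortex, in every library. An H3K4me3 peak was present at 47.1% to 51.8% of members in the cortex libraries (median 49.2%) and at 62.0% to 66.2% in the gastrocnemius libraries (median 63.8%), and the tissues did not overlap. Over all autosomal genes the medians were 60.6% and 59.4%. For H3K27ac, 43.8% to 58.3% of members had a peak in the cortex (median 54.3%) and 74.6% to 79% in the gastrocnemius (median 77.3%), again without overlap, while all genes had medians of 66.0% and 61.8%. At the genes with H3K27me3 in both tissues the order was the opposite, with H3K4me3 medians of 62.2% in the cortex and 52.5% in the gastrocnemius, and H3K27ac medians of 59.1% and 39.0%. The lowest cortex value of H3K27ac belonged to replicate 9, and the other 8 cortex libraries lay between 52.0% and 58.3%.

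**Figure D1:**
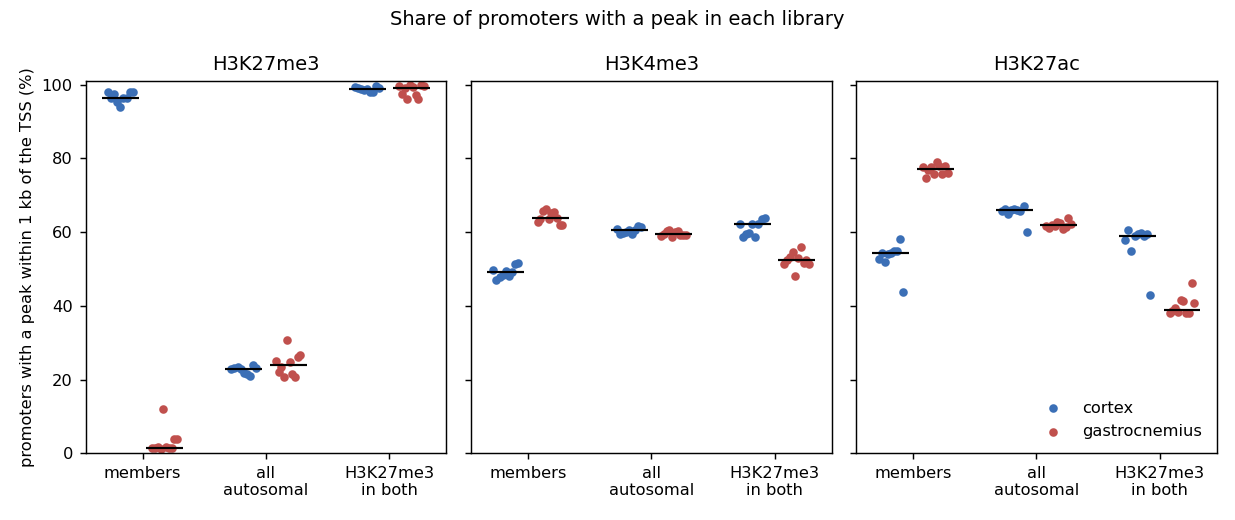
Percentage of promoters with a peak within 1 kb of the TSS (vertical axis) in each library (points, 9 cortex and 10 gastrocnemius) with the median of the group (line), for the 429 members, all 24963 autosomal genes and the 2637 genes with H3K27me3 in both tissues. H3K27me3 chose the members, and at the members the gastrocnemius points of H3K4me3 and H3K27ac all lie above the cortex points.

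In the cortex, 178 members (41.5%) had H3K4me3 and H3K27ac peaks in all libraries or all but 1, next to H3K27me3, and 139 (32.4%) had neither mark in any library. Over all autosomal genes these shares were 56.3% and 27.7%, and 45.4% and 22.8% at the genes with H3K27me3 in both tissues. In the gastrocnemius, where at most 1 library had an H3K27me3 peak, 257 members (59.9%) had both active marks, 49 (11.4%) had H3K27ac without H3K4me3, and 71 (16.6%) had neither. All autosomal genes had both at 53.4%, H3K27ac without H3K4me3 at 5.25% and neither at 29.6%. For 68 members (15.9%) no library of either tissue had an H3K4me3 or H3K27ac peak, which was the case at 24.3% of all autosomal genes. Members rich and poor in CpGs differed in these shares. Of the 118 members with a CpG ratio over 0.6, 95.8% had H3K4me3 in the cortex and 97.5% in the gastrocnemius, and 88.1% and 97.5% had H3K27ac. Of the 311 members at or under this ratio, 28.0% had H3K4me3 in the cortex and 46.9% in the gastrocnemius, and 31.5% and 61.4% had H3K27ac. The same shares were not counted over all autosomal genes by CpG ratio. Whether the split is particular to the members was therefore not tested. No member without any active mark had a ratio over 0.6, and the median ratio of these 68 was 0.158.

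**Figure D2:**
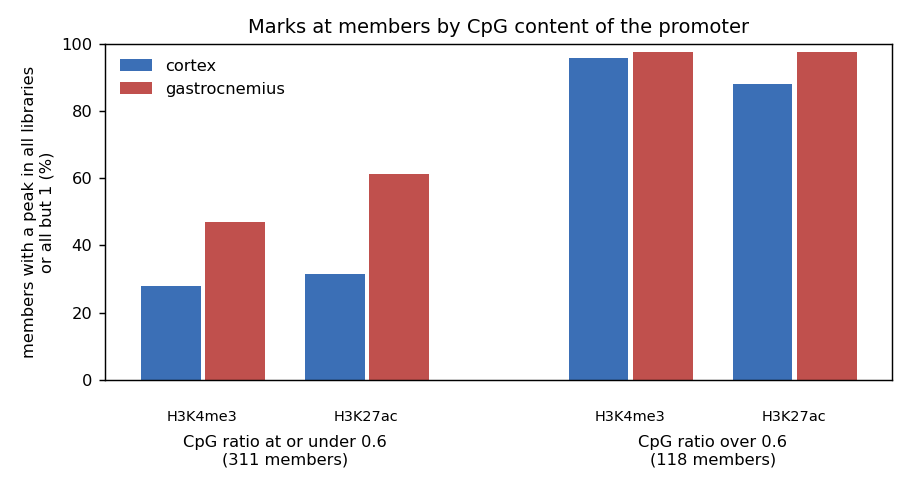
Percentage of members with an H3K4me3 or H3K27ac peak in all libraries of a tissue or all but 1 (vertical axis), for the 311 members with an observed to expected CpG ratio at or under 0.6 and the 118 members over it. Bars for the cortex and the gastrocnemius reach 28.0% and 46.9% (H3K4me3) and 31.5% and 61.4% (H3K27ac) at the CpG-poor members, and between 88.1% and 97.5% at the CpG-rich members.

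The presence of a peak was compared between the tissues at every autosomal promoter by Fisher's exact test on the number of libraries (two-sided, Benjamini-Hochberg adjustment over 24963 promoters, called at an FDR under 0.1). H3K4me3 peaks were called in more gastrocnemius than cortex libraries at 57 of 429 members (13.3%), where 2.28% of all promoters were called in this direction, and in more cortex libraries at 1 member (0.233%), where 3.35% of all promoters were. H3K27ac peaks were called in more gastrocnemius libraries at 87 members (20.3%), against 2.77% of all promoters, and in more cortex libraries at 2 members (0.466%), against 6.25%. At 36 members H3K4me3 went from none of 9 cortex to all 10 gastrocnemius libraries, and at 49 members H3K27ac did. This pattern was not counted over all promoters, so these 2 counts are a description only. Both marks were called toward the gastrocnemius at 37 members, H3K4me3 alone at 20 and H3K27ac alone at 50, so 107 members (24.9%) had at least 1 such call, against 4.06% of all promoters, and both marks were called at 0.989% of all promoters. Most of the others could not be called by presence: an H3K4me3 peak stood in all 19 libraries at 194 members and in none at 123, and an H3K27ac peak in all 19 at 173 and in none at 72.

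Where every library of a mark had a peak, the reads of the overlapping peaks were compared by edgeR's quasi-likelihood test. H3K4me3 reads were higher in the gastrocnemius at 188 of 194 members tested (96.9%), where 40.2% of the 13419 promoters tested were called in this direction, and higher in the cortex at 3 members (1.55%), where 38.2% were. H3K27ac reads were higher in the gastrocnemius at 156 of 173 members tested (90.2%), against 38.2% of 12951 promoters, and higher in the cortex at 4 members (2.31%), against 34.2%. The median log2 fold change, gastrocnemius over cortex, was 1.25 for H3K4me3 at members (interquartile range 0.91 to 2.01) and 0.01 over all promoters tested. For H3K27ac it was 1.62 (0.94 to 2.42) at members and 0.05 over all. These folds count the whole peak and so include its width. Within 1 kb of the TSS alone, the members' medians were 1.01 for H3K4me3 and 0.69 for H3K27ac, with all promoters at -0.01 for both, and 183 (94.3%) and 151 members (87.3%) were called higher in the gastrocnemius, where 26.2% and 24.2% of all promoters tested in this way were.

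**Figure D3:**
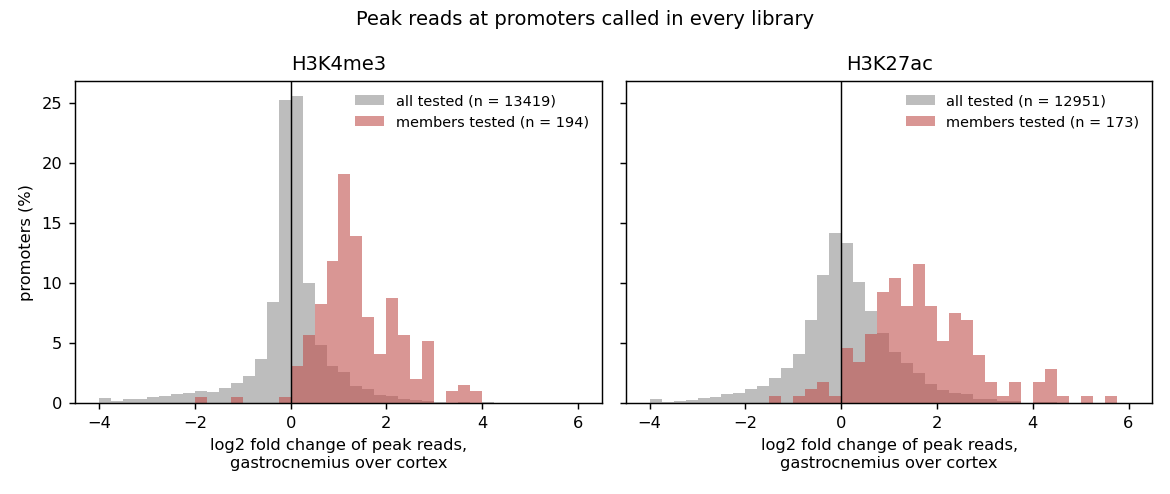
Percentage of promoters (vertical axis) in bins of 0.25 of the log2 fold change of peak reads, gastrocnemius over cortex (horizontal axis, values beyond the ends put in the end bins), at promoters with a peak in every library of the mark. Grey bars are all promoters tested (13419 for H3K4me3, 12951 for H3K27ac) and red bars the members (194 and 173), whose medians are 1.25 and 1.62.

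The active marks at members were also wider in the gastrocnemius. Where a mark was present in all libraries or all but 1, the median H3K27ac peak at members spanned 13.8 kb in the gastrocnemius and 4.4 kb in the cortex, compared with 8.5 and 5.6 kb over all autosomal genes. H3K4me3 peaks at members spanned 5.5 and 2.8 kb, compared with 3.9 and 3.0 kb over all. Each of these medians is over the genes that had the mark in that tissue, so the tissues differ in the genes counted. Among members these were 306 in the gastrocnemius and 202 in the cortex for H3K27ac, and 261 and 200 for H3K4me3. At 5 kb downstream of the TSS, 54.5% of members lay under an H3K27ac peak in the median gastrocnemius library and 21.0% in the median cortex library. At 5 kb upstream the corresponding values were 44.4% and 15.6%. For H3K4me3, 26.2% and 7.23% of members were covered at 5 kb downstream, and 9.91% and 2.33% at 5 kb upstream. H3K27me3 in the cortex, the mark of the rule, covered 86.7% of members at the TSS and 45.2% at 5 kb downstream.

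**Figure D4:**
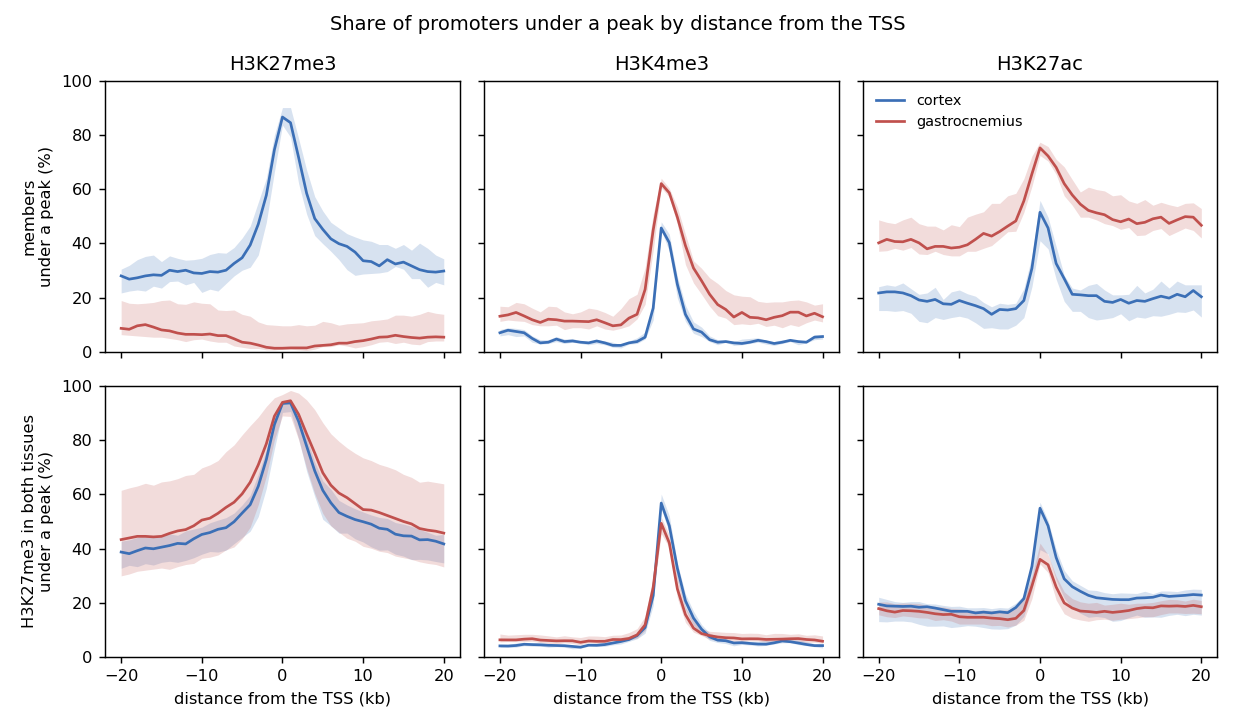
Percentage of promoters under a peak (vertical axis) by distance from the TSS in the direction of transcription (horizontal axis, kb), for the members (upper row) and the genes with H3K27me3 in both tissues (lower row). Lines are medians over libraries and bands run from the lowest to the highest library, and at the members the gastrocnemius bands of H3K4me3 and H3K27ac lie above the cortex bands near the TSS, with 62.1% against 45.7% and 75.3% against 51.5% at the TSS itself.

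Listed genes of skeletal muscle were members more often than autosomal genes in general. Of 164 autosomal genes in 4 lists (myogenic regulators, sarcomere and Z-disc, neuromuscular junction and calcium handling, muscle metabolism), 28 (17.1%) were members, compared with 1.72% of all autosomal genes. Of these 28, H3K4me3 was called in more gastrocnemius libraries at 17 and H3K27ac at 14, and all 9 whose H3K4me3 and all 9 whose H3K27ac reads could be tested were higher in the gastrocnemius, so that 27 of 28 had at least 1 call by presence or reads, as did 107 of the 136 other genes of these lists (78.7%) and 32.2% of all autosomal genes. The other genes of the same lists often had the call by presence too: of the 136 that were not members, 59 (43.4%) had it for H3K4me3 and 42 (30.9%) for H3K27ac, against 60.7% and 50% of the 28 members and 2.28% and 2.77% of all promoters. Whether these shares differ between members and the other muscle genes was not tested. No H3K27me3 in any of the 19 libraries of that mark was found at 44 of the 164 genes (26.8%) and at 56.3% of all autosomal genes. The lists were drawn up with results of these data known and are described here by counts only.

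Among myogenic regulators 4 of 28 were members: Smyd1, Eya4, Vgll2 and Myf5. Smyd1, a muscle-specific methyltransferase needed for sarcomere assembly, had H3K27me3 at 6.04, 7.71 and 11.8 RPM (lowest, median and highest of 9) in the cortex and a peak in 1 gastrocnemius library, replicate 5, at 1.63 RPM. No cortex library had H3K4me3 or H3K27ac there, while all 10 gastrocnemius libraries had both, at 15.7, 19.7 and 24.1 RPM of H3K4me3 and 8.29, 9.82 and 12.2 RPM of H3K27ac. The tissues separated without overlap in both active marks (Fisher's exact test, adjusted p = 0.00034 and 0.000252). Vgll2, a cofactor of TEAD factors in muscle differentiation, kept a narrow H3K4me3 peak in the cortex under a domain of H3K27me3 of 15.6 kb. Its H3K4me3 was 4.49, 5.32 and 6.67 RPM in the cortex and 13.9, 18.3 and 32.8 RPM in the gastrocnemius, with no overlap, and its peak reads were higher in the gastrocnemius by 3.53 ± 0.166 (log2, SE, edgeR adjusted p = 9.21e-14). Its H3K27ac was present in all gastrocnemius and no cortex libraries (exact adjusted p = 0.000252). Eya4, a coactivator of homeodomain factors in muscle, had both active marks in every library of both tissues, and reads of both were higher in the gastrocnemius, by 1.12 ± 0.105 for H3K4me3 (edgeR adjusted p = 6.36e-09) and 1.72 ± 0.122 for H3K27ac (2.08e-10). Within 1 kb of its TSS the H3K4me3 levels overlapped, at 22 to 32.5 RPM in the cortex and 22 to 40.7 RPM in the gastrocnemius, and so did those of H3K27ac, at 5.55 to 8.07 and 6.37 to 13.2 RPM. Myf5, a myogenic determination factor, had both active marks in all gastrocnemius libraries and none in the cortex.

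Of 68 sarcomere and Z-disc genes 13 were members: Des, Actc1, Tnnc2, Tpm2, Trim63, Trim54, Mybpc2, Tnni2, Tnnt3, Pdlim3, Tpm1, Myom1 and Nrap. Des encodes desmin, the intermediate filament that ties myofibrils together. Its H3K27me3 was 6.14, 7.52 and 9.33 RPM in the cortex in a domain of 3.4 kb, over the CpG-rich start site shown above. H3K27ac was present there in all 19 libraries, at 4, 4.83 and 5.77 RPM in the cortex and 9.29, 11.2 and 13.2 RPM in the gastrocnemius. These ranges did not overlap, and the median H3K27ac peak spanned 4.4 kb in the cortex and 93.7 kb in the gastrocnemius, so that reads of the whole peaks were higher by 5.20 ± 0.148 (log2, SE, edgeR adjusted p = 7.58e-16). H3K4me3 of Des was in 5 of 9 cortex and all 10 gastrocnemius libraries, a difference in presence that did not pass Fisher's exact test (adjusted p = 0.455) but passed without the lowest 25% of peaks by score (0.000322), with equally many peaks per library (0.0128) and with adjustment over promoters that vary (0.0598), and the levels did not overlap, at 0 to 4.04 RPM and 18.8 to 28.9 RPM. Tnnt3, the fast skeletal troponin T, had H3K4me3 in no cortex and all gastrocnemius libraries (13.7, 17.3 and 23.8 RPM, exact adjusted p = 0.00034). H3K27ac at Tnnt3 was in 5 cortex libraries at up to 4.19 RPM and in all 10 gastrocnemius libraries at 9.28 to 14.5 RPM, and its presence was not called (exact adjusted p = 0.281), although it was without the lowest 25% of peaks by score (0.0335) and with adjustment over promoters that vary (0.0633). Tpm1, a tropomyosin that many cell types express, had both marks in every library. Its H3K4me3 reads were higher in the gastrocnemius by 0.75 ± 0.146 (edgeR adjusted p = 0.000111) and its H3K27ac reads by 1.29 ± 0.211 (2.22e-05), while the levels within 1 kb of its TSS overlapped in both marks.

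**Figure D5:**
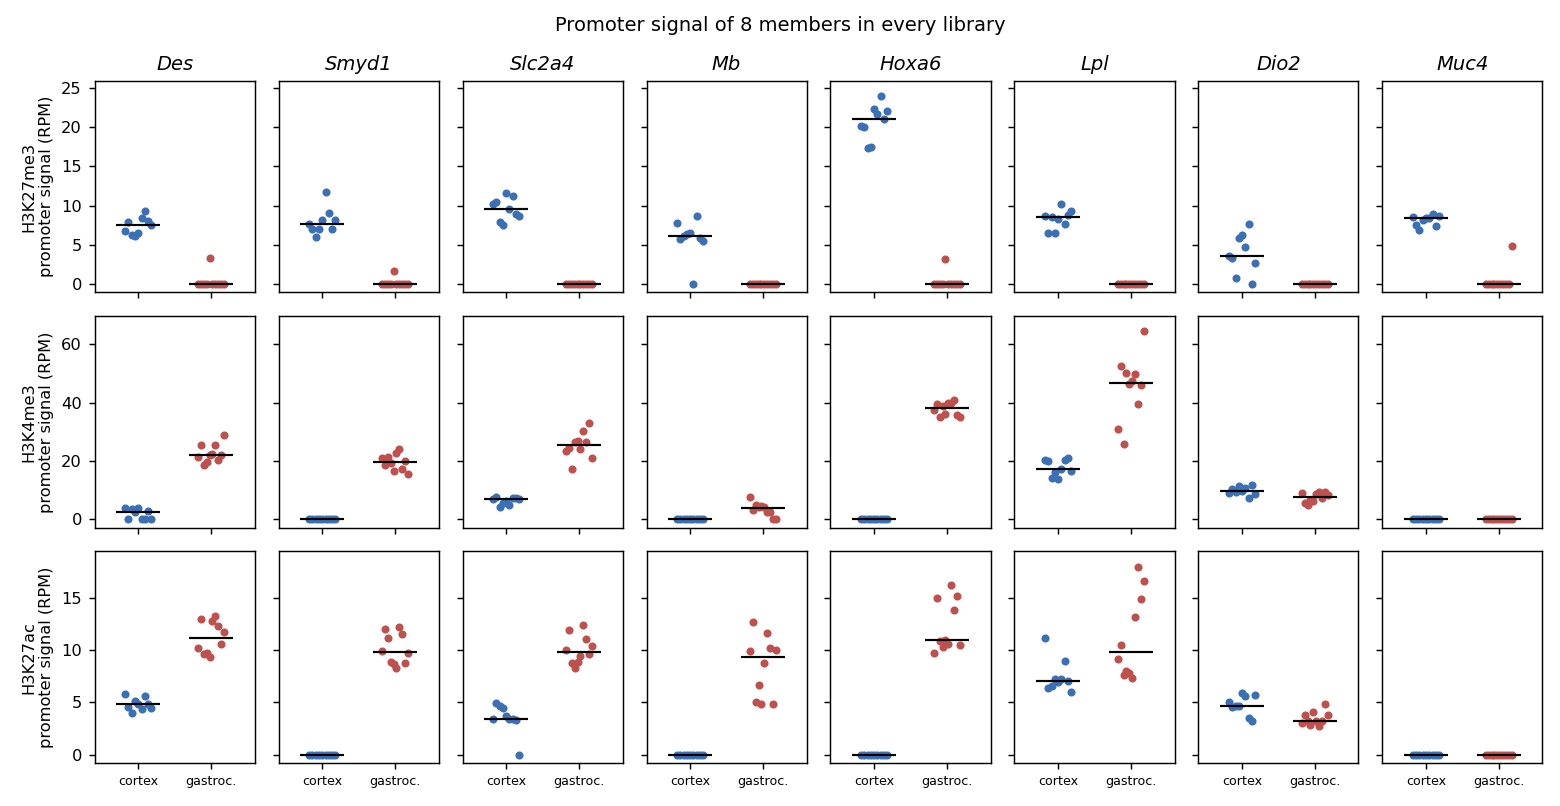
Promoter signal in RPM (vertical axes, 1 scale per mark) of H3K27me3, H3K4me3 and H3K27ac at 8 members in each library, 9 of the cortex and 10 of the gastrocnemius (points), with the median (line) and 0 where no peak was called. H3K27me3 chose the members, and at Des, Smyd1, Slc2a4, Mb and Hoxa6 all H3K27ac points of the gastrocnemius lie above those of the cortex, while Dio2 overlaps and Muc4 has no active mark.

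Genes of calcium handling and of the muscle membrane followed the same order. Of 38 genes 5 were members: Jph2, Casq2, Dysf, Cav3 and Scn4a. Jph2, the junctophilin that joins the plasma membrane to the sarcoplasmic reticulum, had H3K4me3 in no cortex library and at 23.1, 30.2 and 38.1 RPM in the gastrocnemius (exact adjusted p = 0.00034). Its H3K27ac was in 3 of 9 cortex libraries at up to 2.99 RPM and in all gastrocnemius libraries at 8.57 to 13.3 RPM (exact adjusted p = 0.0356), a call that was lost when any of 9 gastrocnemius libraries was left out (0.1 to 0.102). The call was also lost with a window of 2.5 kb (0.277) and with only the libraries without a run number (0.217). Dysf encodes dysferlin, which acts in membrane repair. Its H3K4me3 was 5.03, 9.41 and 11.2 RPM in the cortex and 13.4, 18.6 and 24.0 RPM in the gastrocnemius, and its H3K27ac was 3.08, 3.63 and 4.76 RPM and 5.88, 9.83 and 11.6 RPM. Neither mark overlapped between the tissues, and the peak reads were higher in the gastrocnemius by 2.12 ± 0.107 and 2.51 ± 0.257 (log2, SE, edgeR adjusted p = 3.03e-13 and 4.56e-08). Scn4a, the sodium channel of skeletal muscle, had an H3K27ac peak of 59.7 kb in the gastrocnemius, at 8.67, 9.77 and 12.5 RPM, and none in the cortex (exact adjusted p = 0.000252). Its H3K4me3 was weak, in 9 of 10 gastrocnemius libraries at a median of 1.31 RPM and in no cortex library (exact adjusted p = 0.0029), a call lost with a window of 500 bp (0.461), with coverage of 50% (0.984) and without the lowest 25% of peaks by score (0.416).

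Of 30 genes of muscle metabolism 6 were members: Pdk4, Hk2, Fgf6, Ckm, Slc2a4 and Mb. Slc2a4 encodes GLUT4, the glucose transporter that responds to insulin. In the cortex it had H3K27me3 at 7.56, 9.58 and 11.6 RPM together with H3K4me3 at 4.34, 7.01 and 7.61 RPM. In the gastrocnemius no library had an H3K27me3 peak and H3K4me3 was 17.2, 25.5 and 32.9 RPM, without overlap, and the H3K4me3 peak reads were higher by 3.76 ± 0.149 (log2, SE, edgeR adjusted p = 5.7e-15). H3K27ac of Slc2a4 was in 8 cortex libraries at up to 4.92 RPM and in all gastrocnemius libraries at 8.31 to 12.4 RPM, so it could not be tested by reads and its presence was not called (exact adjusted p = 1.0). Hk2, the muscle hexokinase, had both marks in all libraries and H3K27ac reads higher by 4.47 ± 0.135 (edgeR adjusted p = 9.64e-16), with peaks of 3.2 kb in the cortex and 42.8 kb in the gastrocnemius. Mb encodes myoglobin, the oxygen store of muscle. Its most upstream TSS, the one used here, holds few CpGs, and the gene's record spans 77015487 to 77050668 on chromosome 15. Whether muscle uses this start was not tested. Neither active mark was in any cortex library there, while H3K27ac was in all 10 gastrocnemius libraries at 4.82, 9.35 and 12.6 RPM (exact adjusted p = 0.000252) and H3K4me3 in 8 of them at a median of 3.76 RPM (exact adjusted p = 0.0148), the latter call lost without the lowest 25% of peaks by score (0.963) and with equally many peaks per library (0.155). Ckm, the muscle creatine kinase, had H3K4me3 in all 10 gastrocnemius libraries, at 16.1 to 27.5 RPM, and in none of the cortex.

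The largest run of members lay in the Hoxa cluster on chromosome 6, where Gm15050, LOC115490409, Hoxa4, Hoxaas3, Hoxa5 and Hoxa6 start within 36 kb of each other. Hox genes encode the homeodomain factors that lay out the body axis. These 6 promoters are not independent, since cortex H3K27me3 peaks of 41.8 to 68.4 kb cover several of them and give Hoxa5, Hoxa6 and Hoxaas3 the same values, 17.4, 21.0 and 23.9 RPM, the highest of all members. H3K27ac was absent from all 6 in the cortex and present at all 6 in every gastrocnemius library (exact adjusted p = 0.000252 each), in peaks of 26.7 to 57.9 kb. This pattern was not particular to the members: of 39 autosomal Hox genes, 38 had H3K27ac in no cortex library and 29 in every gastrocnemius library, and presence was called toward the gastrocnemius at 30 for H3K27ac and at 25 for H3K4me3. At Hoxa6 H3K4me3 was in no cortex library and at 35.0, 38.3 and 41.1 RPM in the gastrocnemius (exact adjusted p = 0.00034). Hoxa5 and Hoxa4 differed from it in that a low and narrow H3K4me3 peak stood in 8 and 9 cortex libraries, at up to 5.39 and 3.73 RPM. In the gastrocnemius H3K4me3 was 17.5, 31.0 and 39.6 RPM at Hoxa5 and 13.3, 18.2 and 20.1 RPM at Hoxa4, where the peak reads were higher by 3.71 ± 0.083 (log2, SE, edgeR adjusted p = 1.18e-18). The antisense transcript Hoxaas3 overlaps the cluster, and signal at its start cannot be told from that of the Hox genes. Of these 39 genes 3 were members, and 24 had H3K27me3 in both tissues. The most upstream TSSs of Hoxa3 and Hoxa7, at 52213067 and 52218573, both lie beyond that of Hoxa6, on the same side of the run. Hoxa3 and Hoxa7 had the same cortex peak in 9 libraries and missed the rule with 2 gastrocnemius libraries each, at up to 10.7 and 8.03 RPM.

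Most other developmental genes listed had H3K27me3 in both tissues. Of 49 limb and connective tissue factors 2 (4.08%) were members and 38 were marked in both, and of 60 Wnt, FGF, BMP and other ligands 3 (5%) were members and 40 were marked in both, where 1.72% of all autosomal genes were members. Prrx1, a homeobox factor of limb and connective tissue mesenchyme, had H3K4me3 at 14, 16.3 and 19.9 RPM in the cortex and 27, 31.7 and 41.3 RPM in the gastrocnemius. H3K27ac there was 4.21, 5.70 and 7.94 RPM and 8.60, 9.41 and 12.1 RPM. Neither mark overlapped, and reads were higher in the gastrocnemius by 1.48 ± 0.0769 and 2.97 ± 0.159 (log2, SE, edgeR adjusted p = 4.7e-13 and 3.36e-12). Snai1, a repressor that acts in epithelial to mesenchymal transition, also had higher reads of both marks, by 0.98 ± 0.101 and 1.55 ± 0.257 (edgeR adjusted p = 2.72e-08 and 2.61e-05), although its levels within 1 kb of the TSS overlapped. Among ligands, Fgf2 had H3K4me3 reads higher by 0.91 ± 0.0525 (edgeR adjusted p = 2.86e-12) and H3K27ac reads higher by 1.82 ± 0.144 (9.98e-10), and within 1 kb of its TSS the H3K27ac difference was 0.15 and did not pass (edgeR adjusted p = 0.211). Wnt9a had the smallest called differences of these 3, 0.61 ± 0.143 for H3K4me3 (edgeR adjusted p = 0.000704) and 0.43 ± 0.178 for H3K27ac (0.04), and the latter was lost without gastrocnemius replicate 3 (0.33, edgeR adjusted p = 0.112). At Fgf2 and Wnt9a the levels within 1 kb of the TSS overlapped in both marks. Fgf21, the endocrine factor that muscle and liver release under stress, had no H3K4me3 in the cortex and a peak in 2 gastrocnemius libraries, and neither mark was called (exact adjusted p = 1.0 each).

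The lists held 44 of the 429 members, and the other 385 were not classified by cell type. Of 50 extracellular matrix genes 4 (8%) were members, against 1.72% of all autosomal genes: Col6a3, Lamb2, Sparc and Fbln5. Lamb2, a laminin chain of the neuromuscular junction and of vessels, had H3K4me3 at 11.7, 15.8 and 20 RPM in the cortex and 21.3, 31.3 and 39.9 RPM in the gastrocnemius, without overlap, and reads of both marks were higher there (2.36 ± 0.212 and 2.79 ± 0.0979, log2, SE, edgeR adjusted p = 3.28e-09 and 8.31e-15). Its H3K27ac levels within 1 kb of the TSS overlapped, at 5.01 to 10.6 RPM and 8.77 to 13.6 RPM. Sparc, a collagen-binding matrix protein, was also higher in both marks, by 1.58 ± 0.0864 and 1.67 ± 0.142 (edgeR adjusted p = 1.17e-12 and 3.12e-09). Fbln5, an elastic fibre protein, showed 0.74 ± 0.0553 and 0.84 ± 0.18 (edgeR adjusted p = 1.89e-10 and 0.000395). At Sparc and Fbln5 the levels within 1 kb of the TSS overlapped between the tissues in both marks. Of 18 fibroblast and satellite cell markers 1 (5.56%) was a member, Sdc4, with reads higher by 1.18 ± 0.0773 and 1.19 ± 0.0973 (edgeR adjusted p = 2.13e-11 and 1.62e-09). The H3K4me3 levels of Sdc4 within 1 kb of the TSS overlapped, at 11.2 to 23 RPM in the cortex and 15.9 to 21.9 RPM in the gastrocnemius, while those of H3K27ac did not. No endothelial or mural marker of 27, no epithelial gene of 23, no neuron marker of 16 and none of 31 genes for Polycomb and H3K27 enzymes was a member. The lone members among 11 adipocyte markers, 22 blood and immune markers and 18 glia markers (9.09%, 4.55% and 5.56%) were Lpl, Spi1 and Aldh1l1. Genes of vessels and immune cells that no list held were also among the members. Of these, named after their values were seen, Cd93, an endothelial surface protein, had reads higher in the gastrocnemius by 2.28 for H3K4me3 and 2.67 for H3K27ac (log2, edgeR adjusted p = 6.23e-16 and 1.46e-11). Tlr2, a receptor of innate immune cells, had reads higher by 1.01 and 0.98 (edgeR adjusted p = 9.36e-10 and 1.31e-06). Other immune genes among the members did not show this. Mrc1, Cnr2, Cd300a and Prf1 had no call for either mark, and Traf3ip3 was called toward the cortex for H3K27ac. Unlisted members of these cell types were not counted. The H3K27ac signal summed over the adipocyte list was 37.7 to 52.9 RPM in the cortex and 40.1 to 67.7 RPM in the gastrocnemius, and Adipoq had no peak in either tissue.

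Lpl, lipoprotein lipase, which muscle fibres express as well as adipocytes, had the highest H3K4me3 of the named members in the gastrocnemius, at 25.8, 46.9 and 64.5 RPM, against 13.9, 17.4 and 21.1 RPM in the cortex. Its reads were higher by 2.15 ± 0.0734 for H3K4me3 and 2.60 ± 0.173 for H3K27ac (log2, SE, edgeR adjusted p = 5.39e-16 and 7.98e-11). The H3K27ac levels of Lpl within 1 kb of the TSS overlapped, at 5.94 to 11.2 RPM in the cortex and 7.28 to 18 RPM in the gastrocnemius. Spi1 encodes PU.1, the master factor of macrophages and microglia. Its H3K27ac was in every library of both tissues, at 4.29 to 6.42 RPM and 4.75 to 8.60 RPM, which overlap, with reads higher by 0.83 ± 0.298 in the gastrocnemius (edgeR adjusted p = 0.0186). Its H3K4me3 was in 3 cortex and all 10 gastrocnemius libraries (exact adjusted p = 0.0563), a call that was lost without any of the gastrocnemius libraries (0.157 to 0.162). Blood and immune markers as a list had similar summed H3K27ac in the tissues, 57.6 to 68.0 RPM in the cortex and 45.7 to 64.7 RPM in the gastrocnemius, and Ptprc had no peak in either. Aldh1l1, a folate enzyme used as an astrocyte marker, carried H3K27me3 at 6.57, 9.06 and 11.0 RPM in the cortex. Its active marks were higher in the muscle, with reads up by 0.85 ± 0.112 for H3K4me3 and 2.35 ± 0.218 for H3K27ac (edgeR adjusted p = 9.17e-07 and 1.11e-08). Within 1 kb of the TSS the H3K4me3 of Aldh1l1 overlapped, at 7.17 to 10.9 RPM and 10 to 21.7 RPM, as did its H3K27ac, at 4.51 to 7.09 RPM and 5.56 to 8.88 RPM.

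The largest differences by peak reads are given among members with a peak of the tested mark in every library, as the test required. Plin5, a lipid droplet protein of oxidative tissue, led for H3K4me3, with reads higher by 3.92 ± 0.37 (log2, SE, edgeR adjusted p = 7.5e-09) and a signal of 3.20, 4.13 and 4.77 RPM in the cortex and 9.17, 13.4 and 16.7 RPM in the gastrocnemius. Smtnl2, a smoothelin-like protein, led for H3K27ac, with 3.46, 4.83 and 6.52 RPM and 8.61, 11.3 and 13.5 RPM, peaks of 2.4 and 65.7 kb, and reads higher by 5.72 ± 0.305 (edgeR adjusted p = 2.98e-12). Des came next, and Cped1 followed with 4.64 ± 0.176 (edgeR adjusted p = 2.32e-14). In each of these cases the ranges of the tissues within 1 kb of the TSS did not overlap, apart from H3K27ac at Cped1, at 5.07 to 7.85 RPM and 7.44 to 12.5 RPM.

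A handful of members went the other way, with whole-peak reads or peak presence of an active mark higher in the cortex, where H3K27me3 was also found. Most of these calls by reads were lost when only the reads within 1 kb of the TSS were counted. Ntsr2, a neurotensin receptor, and Dio2, the deiodinase that activates thyroid hormone, are both genes of astrocytes in the brain. Dio2 had H3K4me3 at 7.40, 9.70 and 11.7 RPM in the cortex and 5.02, 7.87 and 9.55 RPM in the gastrocnemius, and H3K27ac at 3.24, 4.66 and 5.91 RPM and 2.70, 3.21 and 4.88 RPM. The ranges overlap, and the whole peaks were wider in the cortex, 5.8 against 2.8 kb for H3K4me3 and 6.0 against 3.4 kb for H3K27ac. Reads of whole peaks were lower in the gastrocnemius by 1.21 and 1.39 on the log2 scale (-1.21 ± 0.124 and -1.39 ± 0.178, SE, edgeR adjusted p = 2.44e-08 and 1.05e-06), and within 1 kb of the TSS the differences were -0.04 and -0.15 and did not pass (edgeR adjusted p = 0.827 and 0.35). At Ntsr2 the marks moved in opposite directions. H3K4me3 reads were lower in the gastrocnemius (-1.83 ± 0.148, edgeR adjusted p = 6.51e-10), with -0.07 and no call within 1 kb of the TSS (edgeR adjusted p = 0.713), while H3K27ac reads were higher by 1.39 ± 0.58 (edgeR adjusted p = 0.0403), a call lost with the animal as a replicate block (1.06, edgeR adjusted p = 0.139). The other calls of reads toward the cortex, named after their values were seen, were those of Zbtb40 (H3K4me3 -0.10 and H3K27ac -0.30, edgeR adjusted p = 0.00528 and 0.0184), Rtkn (H3K27ac -0.67, 0.0202, while its H3K4me3 was higher in the gastrocnemius by 0.37, 0.0332) and Wfikkn2 (H3K27ac -0.79, 0.047). By presence, 3 members were called toward the cortex. Clec18a, a C-type lectin gene, had H3K4me3 in 6 cortex and no gastrocnemius libraries (exact adjusted p = 0.0563), while BC016548 and Traf3ip3, a gene of immune cells, had H3K27ac in 6 cortex and no gastrocnemius libraries (exact adjusted p = 0.0356 each). These peaks were low, with medians of 2.94, 1.21 and 2.69 RPM over the cortex. Each of the 3 calls was lost when any of most gastrocnemius libraries was left out. All 3 were also lost with coverage of 50%, without the lowest 25% of peaks by score and with equally many peaks per library.

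Of the 68 members without H3K4me3 or H3K27ac in any library, Muc4, 4921513I03Rik and 1700112H15Rik had the most H3K27me3 in the cortex. Muc4, a membrane mucin of epithelia, carried 6.90, 8.44 and 8.88 RPM in a domain of 11.4 kb, and its only gastrocnemius peak was in replicate 10 at 4.91 RPM. The cortex medians of the other 2 were 8.26 and 8.18 RPM. At the threshold of the rule, Meis1 and BC016548 had the most H3K27me3 of the members with 8 cortex libraries and 1 gastrocnemius library, with cortex medians of 8.42 and 7.96 RPM. H2-K2 and Ucp2, with 7 cortex and no gastrocnemius libraries, had medians of 9.26 and 8.95 RPM and lay outside. Meis1, a cofactor of Hox proteins, had strong H3K4me3 in both tissues, 26.9 to 39.8 RPM and 28.4 to 40.5 RPM. Its H3K4me3 reads differed by 0.26 ± 0.114 (log2, SE, edgeR adjusted p = 0.0461, lost with only the libraries without a run number, 0.175) and its H3K27ac reads by 0.17 ± 0.173, which did not pass (edgeR adjusted p = 0.404), while within 1 kb of the TSS the H3K27ac difference was 0.40 and passed (edgeR adjusted p = 0.00197). H2-K2 belongs to a multigene family, and whether its reads were split among similar copies was not tested.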

How the data were processed

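Histone marks were measured by chromatin immunoprecipitation sequencing in 9 cortexes and 10 gastrocnemius muscles. The authors mapped the reads to mm10 (BWA, SAMtools) and ran epic2 on every library by itself to obtain broad peaks, with an epic2 version that was not stated. The deposited count of a peak is its number of fragments, without normalization, called reads here. The deposited score, the peak caller's own, served only to rank peaks in alternatives. Comparisons by the authors were not used.

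Promoters were those of RefSeq NM and NR genes of GRCm38.p6, taken as the most upstream TSS and 1 kb on either side. Peak presence was compared by Fisher's exact test over 24963 promoters, and counts by edgeR's quasi-likelihood test with TMM factors at promoters with a peak in all 19 libraries of a mark, both at an FDR under 0.1. For RPM, peak reads were assigned to the window in proportion to overlap. H3K27me3, which chose the members, was not compared between the tissues by a test. Software was edgeR 4.0.16, DESeq2 1.42.0 and limma 3.58.1 (R 4.3.3), and SciPy 1.17.1, NumPy 2.4.6 and pandas 2.3.3 (Python 3.11.15). The tests were checked on simulated data. Depth ranged from 2.99 M to 27.3 M reads in peaks per library. The deposited names pair the cortex and gastrocnemius of 9 animals. Deviations from the group means correlated between -0.0678 and 0.0871 within an animal, and the animal entered as a block in an alternative.

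Members and gene lists were chosen with earlier results of these data known. Named are up to 3 members of each list with the most gastrocnemius H3K27ac, up to 3 with the largest called rises and falls in reads without overlap, the 5 with the most cortex H3K27me3, 3 without active marks, 2 on each side of the threshold, and those called by presence toward the cortex. Values of Myf5 and Ckm were added after they were seen. Alternatives were other windows, peak coverage of 50%, filters on score, any TSS, libraries without a run number in the deposited name or with the run number as covariate, DESeq2, other scalings and read minimums, blocks, and each library left out.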

Additional observations from a re-analysis of the deposited data

Results flagged for a closer look

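Signals that stood far from the rest of their group were looked for with Dixon's criterion at the named genes and in the shares of members. Of 216 groups with any variation, 35 had such a library, and chance flags about 1 in 20 groups. The number is not to be read against chance, because the rule on H3K27me3 shaped these groups: in 18 of the 35 the library held the only gastrocnemius peak, of which the rule allows 1, and at Mb, BC016548, Clec18a and Meis1 it was the only cortex library without a peak, of which the rule also allows 1. H3K27me3 of gastrocnemius replicate 5, the deepest library, stood alone at Smyd1 (1.63 RPM), Vgll2 (1.69), Des (3.33), Hoxa6 (3.21), Hoxa5 (0.3), Prrx1 (3.16), Sdc4 (1.2), Ntsr2 (3.37), Plin5 (3.98), 1700112H15Rik (3.36) and Meis1 (0.73), and the share of members with a peak was 12.1% in it. Other single gastrocnemius peaks of H3K27me3 were those of replicate 3 at Hk2 (5.2 RPM), replicate 10 at Snai1 (1.63), Muc4 (4.91) and Clec18a (4.23), replicate 9 at Fgf21 (6.35), replicate 2 at Fbln5 (3.15) and replicate 8 at BC016548 (8.92). Outside the rule, replicate 8 reached 10.7 RPM at Hoxa3 and replicate 7 reached 8.03 RPM at Hoxa7.

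In the cortex, H3K27me3 was high in replicate 1 at Jph2 (16.1 RPM, others up to 12) and in replicate 5 at Hoxa4 (22.3 RPM, others up to 13.3), and was 0 RPM in replicate 6 at Mb, BC016548 and Clec18a and in replicate 7 at Meis1. H3K4me3 was 0 RPM in cortex replicate 6 at Hoxa5 and low in gastrocnemius replicate 6 at Hk2 (14.5 RPM, others 28.5 to 42.8). H3K27ac of cortex replicate 9, the shallowest library of this mark, was 0 RPM at Slc2a4 and 10.6 RPM at Lamb2 (others 5.01 to 6.79), and it had a peak at 43.8% of members, the others at 52% or more. H3K27ac was further high in cortex replicate 7 at Fbln5 (8.57 RPM) and low in gastrocnemius replicate 5 at Dysf (5.88 RPM, others 9.06 to 11.6) and replicate 8 at Clec18a (0.739 RPM, others 3.52 to 5.17).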

How the results depend on the processing

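The rule gave 209 genes when all 9 cortex and none of the 10 gastrocnemius libraries were asked for, and 744, which include all 429 members, with only the libraries without a run number (fewer libraries). Other definitions gave 354 (peaks covering 50% of the window) to 503 genes (window of 2.5 kb), and leaving out single libraries 435 to 482. Of the 429 members, 62.5% were kept with equally many peaks per library, 75.5% with coverage of 50% and 77.6% without the lowest 25% of peaks by score. The other windows kept 89.3% (500 bp) and 90.0% (2.5 kb), and any TSS kept 98.1%. Calls by presence toward the gastrocnemius stayed within 54 to 57 (H3K4me3) and 75 to 93 (H3K27ac) without single libraries. The few toward the cortex did not: for H3K4me3 0 to 1 without single libraries, 2 with a window of 500 bp or adjustment over promoters that vary, and 0 with coverage of 50%, an FDR under 0.05, only libraries without a run number or only animals with both tissues; for H3K27ac 0 to 2 without single libraries, 1 with a window of 500 bp, and 0 with coverage of 50%, without the lowest 25% of peaks, with equally many peaks, without run numbers and with animals of both tissues. By reads, leaving out libraries gave 188 to 189 and 3 (H3K4me3) and 154 to 157 and 3 to 5 (H3K27ac). Promoters with a peak in at least 9 libraries, with 0 reads where uncalled, gave 288 H3K27ac calls toward the gastrocnemius (more promoters tested). Calls of reads toward the cortex were 0 (H3K4me3) and 1 (H3K27ac) within the window, and 2 for H3K27ac without TMM, where the median of all promoters moved to 0.206 (log2). With coverage of 50%, H3K4me3 stood at a median of 43.36% of members (cortex) and 61.42% (gastrocnemius), 43.36% and 60.26% without the lowest 25% of peaks, and 47.09% and 60.96% with equally many peaks. H3K27ac stood at 48.48% and 74.83%, and 47.09% and 75.64%, with the latter 2 settings, 75.29% in the gastrocnemius with coverage of 50% and 79.02% with 2.5 kb. The cause of these moves was not tested.

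With the animal as a replicate block, 189 and 3 (H3K4me3) and 153 and 3 members (H3K27ac) were called by reads toward gastrocnemius and cortex, and with the replicate number of the labels 188 and 3, and 154 and 3. Among named genes the blocks changed the H3K27ac call of Ntsr2, lost, and of H2-K2, a gene outside the rule, gained with the animal (0.30, edgeR adjusted p = 0.0591). Of 3934 values of single genes under the alternatives, 3819 kept their call, 94 lost it, 21 gained one and 0 turned direction. Depth limits presence: an absent peak is not an absent mark.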

Other observations

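Outside the lists, some members were neighbours. The following genes were picked after their values were seen, and their values are given as a description. In all, 38 runs of members whose start sites lie within 50 kb of the next held 87 of the 429 members (20.3%), in 380 loci. The share in such runs was 46% at the genes with H3K27me3 in both tissues, 26% at those with it in the gastrocnemius only and 77.5% over all autosomal genes. On chromosome 7, Nctc1, H19 and its microRNA Mir675, part of an imprinted domain, were marked by H3K27me3 in all 9 cortex libraries, with medians of 7.66, 9.16 and 9.16 RPM, and all had H3K4me3 and H3K27ac in all 10 gastrocnemius and no cortex libraries (Fisher's exact test, adjusted p = 0.00034 and 0.000252 each). Nctc1, a noncoding transcript of muscle, had the most H3K4me3 of the 3, at 21.5 to 34.4 RPM. The fast troponin genes Tnni2 and Tnnt3 form a separate run on this chromosome with Lsp1 and Prr33. On chromosome 11, Gh and Cd79b, genes of the pituitary and of B cells, lie in a run of 5 members with Scn4a, Prr29 and Icam2. H3K27ac was present in 8 and 10 gastrocnemius libraries and no cortex library at Gh and Cd79b (exact adjusted p = 0.00978 and 0.000252), while H3K4me3 was in none and in 1 gastrocnemius library. The gastrocnemius H3K27ac peak at Scn4a had a median width of 59.7 kb. Whether that peak also covers Gh and Cd79b was not tested, so these promoters are not to be read as independent.

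All 3 genes of the Popeye domain family, membrane proteins of heart and skeletal muscle that bind cyclic AMP, were members. Bves, Popdc3 and Popdc2 had H3K27ac in all gastrocnemius libraries and in 1, 0 and 1 cortex libraries (exact adjusted p = 0.00194, 0.000252 and 0.00194). Among 9 members that are microRNA genes, Mir133a-2, of the miR-133 family of muscle, had H3K27me3 at 9.47, 11.8 and 13.5 RPM in the cortex and H3K27ac at 8.95, 9.80 and 12.5 RPM in the gastrocnemius, with none in the cortex (exact adjusted p = 0.000252). H3K4me3 was at its start in 3 gastrocnemius libraries only. The neighbouring chemokine genes Cxcl10 and Cxcl11 each had cortex H3K27me3 in all 9 libraries, in peaks with a median of 10.2 kb, and Cxcl11 had both active marks in every gastrocnemius library and in no cortex library. Cxcl10 was not called by presence for either mark (exact adjusted p = 0.107 for H3K27ac). Its H3K4me3 reads were higher in the gastrocnemius by 0.75 (log2, edgeR adjusted p = 1.3e-05).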
